A study of Mus musculus with 3 samples.

Results

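The matrix metalloproteinases (MMPs), the ADAMTS proteases and the tissue inhibitors of metalloproteinases (TIMPs) were described in NIH3T3 cells, an established line of mouse embryonic fibroblasts. Members were chosen by gene name alone, as every row named Mmp, Adamts or Timp followed by a number, with a letter allowed after the Mmp numbers. The rule found 46 genes of the 55573 listed, namely 23 MMPs, 19 ADAMTS proteases and 4 TIMPs. The study sequenced RNA of untreated cells in 3 libraries, called library 1, library 2 and library 3 here, in the course of developing an amplified in situ hybridization method. All libraries share 1 condition and carry no treatment or genetic change in their labels. In UMI-RNAseq each cDNA molecule carries a random tag, so that PCR copies can be removed before counting. The deposited unit is FPKM, the fragments counted for a gene per kilobase of its length and per 1000000 counted fragments in the library.

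MMPs are zinc endopeptidases that cleave collagens, laminins, proteoglycans and many cell surface proteins. Most are made as inactive precursors that are secreted, while the membrane-type MMPs stay anchored at the cell surface. ADAMTS proteases are secreted relatives that process procollagens, cleave proteoglycans such as aggrecan and versican, and help to build microfibrils. TIMPs bind to the active site of MMPs and block it, and TIMP3 also blocks several ADAMTS and ADAM proteases. Fibroblasts are a main source of many of these proteins in connective tissue.

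The depth behind the values was 14423209, 13959723 and 14307241 counted fragments in libraries 1, 2 and 3, and 39747 to 41640 of these fell on members. The labels do not state separate cultures, so an SD over libraries (n = 3 throughout) may be technical only, and counting intervals cover counting error only. The extraction text of the labels speaks of retinas, whereas the samples are labelled NIH3T3. All 8 fibroblast markers examined had a mean FPKM of at least 1, from 2.97 for S100a4 to 4377 for Fn1. Of 8 retina markers, 0 had a mean of at least 1, their highest was Rcvrn at 0.363, Nrl was at 0, and their summed FPKM was 0.562 to 1.31 per library. The 4 epithelial markers were all below 1, while Cdh5 at 1.35 of 4 endothelial markers and Cd68 at 2.12 of 5 immune markers were above it.

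NIH3T3 cells transcribed a small number of the members strongly and most of the rest barely. A mean FPKM of at least 1 was found for 21 of 46 members (45.7%), which were 9 of 23 MMPs, 9 of 19 ADAMTS proteases and 3 of 4 TIMPs. The same limit was passed by 23.2% of all genes listed and by 49.2% of protein-coding genes, so the share among members was close to that of protein-coding genes. Among those 21 members, 12 reached a mean of 10 and 5 reached 100, namely Timp2, Mmp2, Mmp14, Timp1 and Mmp11. Genes with a mean of at least 1 had a median of 17.5. A further 18 members had a mean above 0 and below 1, and 7 were at 0 in every library. These counts are by deposited FPKM. With the longest annotated isoform as the length, Mmp11 (mean 62.0) fell below 100 and Adamts2 (3.43) fell below 10.

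**Figure D1:**
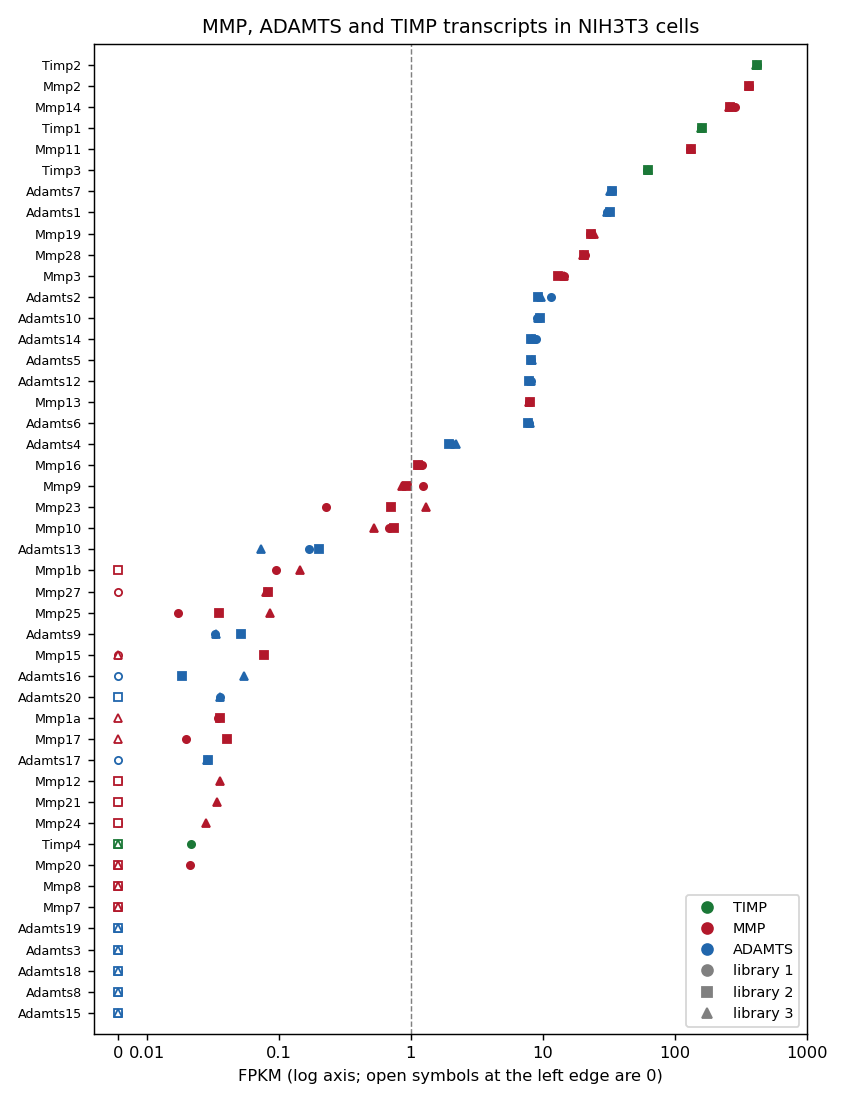
FPKM of the 46 members in each library on a log axis, ordered by mean and coloured by family, with the limit of 1 as a dashed line and values of 0 drawn open at the left edge. Timp2 (mean 417.1), Mmp2 (365.3) and Mmp14 (268.9) lead, and the members with a mean below 0.1 rest on at most 8 fragments each.

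Among the inhibitors, Timp2 was the most abundant transcript, followed by Timp1 and Timp3, while Timp4 was almost absent. Timp2 (ENSMUSG00000017466, chr11:118301069-118355740, minus strand) encodes the inhibitor that both blocks MMPs and helps MMP14 to activate pro-MMP2. Its FPKM was 421.1, 416.9 and 413.4 in libraries 1, 2 and 3, a mean of 417.1 ± 3.84 (SD). Timp1, a secreted inhibitor that acts poorly on membrane-type MMPs, had FPKM values of 158.5, 160.2 and 157.3. Timp3, the inhibitor that stays bound to the extracellular matrix, had FPKM values of 61.7, 63.3 and 62.5. The libraries did not overlap between any of these neighbours, and within a library Timp2 was 2.63 ± 0.0268 times Timp1 and Timp1 was 2.54 ± 0.0280 times Timp3. Timp2 also led Timp1 with the longest annotated isoform as the length (1.61 ± 0.0165 times) and without division by length (6.78 ± 0.0691 times), so the size of that lead depends on length. The order of Timp1 and Timp3 depends on it too: without division by length their ratio was 0.956 ± 0.0105, and with the longest annotated isoform as the length it was 5.11 ± 0.0563. Timp4, known mainly from heart and other adult tissues, rested on 1 fragment in library 1 and was at 0 in libraries 2 and 3.

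Timp2 made up 65.3% ± 0.283 of the summed TIMP FPKM. The abundant inhibitors varied little between libraries, with coefficients of variation (CV, the SD divided by the mean) of 0.920% for Timp2, 0.922% for Timp1 and 1.29% for Timp3. Timp1, Timp3 and Timp4 lie across or within synapsin genes on the opposite strand. Timp3 shares 1733 exonic nucleotides with Syn3, which had a mean FPKM of 0.0817, and 20.6% of its 75-nucleotide words occur in a transcript of that gene. Timp1 lies within Syn1 (7.50) and Timp2 overlaps the span of Cep295nl (2.41), in both cases with 0 shared exonic nucleotides. Whether the counting used strand is not given in the sources used here, so fragments from the 2 strands of a shared exon may not be separable.

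The MMP transcripts were dominated by Mmp2 and Mmp14, the gelatinase and the membrane-type protease that activates it. Mmp2 (ENSMUSG00000031740, chr8:92827291-92853420, plus strand) encodes gelatinase A, which cleaves denatured collagen and type IV collagen. Its FPKM was 363.3, 367.2 and 365.4 in libraries 1, 2 and 3, with a CV of 0.536%. The other gelatinase, Mmp9, is typical of leukocytes and invading cells. Mmp9 had FPKM values of 1.23, 0.940 and 0.864 on 23, 17 and 16 fragments, so that Mmp2 carried 99.7% of the gelatinase FPKM. With a mean of 1.01, Mmp9 was the member just inside the limit of 1. Its mean was 0.413 with the longest annotated isoform as the length.

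Mmp14 (ENSMUSG00000000957, chr14:54431612-54445364, plus strand) encodes MT1-MMP, a membrane-anchored collagenase and the main activator of pro-MMP2. It reached an FPKM of 285.7 in library 1, compared with 261.1 and 259.8 in libraries 2 and 3. Library 1 was the high one, at 1.097 times the mean of the others. Of the 6 membrane-anchored MMPs, Mmp14 supplied 99.5% of the summed FPKM. The only other one with a mean of at least 1 was Mmp16, a membrane-type MMP known from brain and cartilage, with FPKM values of 1.21, 1.13 and 1.16. Mmp15, Mmp17, Mmp24 and Mmp25 had means from 0.00941 (Mmp24) to 0.0461 (Mmp25).

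Mmp2, Mmp14 and Timp2 encode the partners of 1 activation complex at the cell surface, in which TIMP2 links MMP14 to pro-MMP2. Within libraries 1, 2 and 3, the ratio of Timp2 to Mmp2 was 1.16, 1.14 and 1.13, and the ratio of Timp2 to Mmp14 was 1.47, 1.60 and 1.59. Mmp2 stood at 1.27, 1.41 and 1.41 times Mmp14. Timp2 was thus the highest of this group in every library, and it remained so with the longest isoform as the length (1.46 ± 0.0191 times Mmp2 and 2.12 ± 0.0947 times Mmp14) and without division by length (1.75 ± 0.0230 and 2.42 ± 0.108).

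Among the remaining MMPs, Mmp11 was by far the highest. Mmp11 encodes stromelysin-3, an MMP that is activated by furin inside the cell and is known from stromal fibroblasts. Its FPKM was 131.1, 131.8 and 132.0, the smallest CV (0.377%) of the 21 members with a mean of at least 1. Mmp19, a widely expressed secreted MMP, had FPKM values of 23.0, 23.3 and 24.7. Mmp28, known as epilysin from skin and testis, had values of 20.8, 20.7 and 20.3. The libraries of Mmp11, Mmp19 and Mmp28 did not overlap, while Mmp19 and Mmp28 each share exons with a gene on the other strand. For Mmp19 that gene is Tmem198b (6.56 FPKM, 789 shared nucleotides), with 23.2% of the Mmp19 words found in other genes. For Mmp28 it is 1700020L24Rik (8.19 FPKM, 466 shared nucleotides), with 9.77% of its words shared. Mmp11 shares 155 exonic nucleotides with Chchd10 (1.88 FPKM). Mmp19 also overlaps Gm47093, while Mmp16 overlaps Gm11860 outside its exons. Mmp23, an MMP anchored by its amino-terminal end and counted here with the secreted group, was just outside the limit, with a mean of 0.742. Its FPKM rested on 3, 9 and 17 fragments in libraries 1, 2 and 3.

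A cluster on chromosome 9 holds 10 of the 23 MMP genes within 427 kb (chr9:7272514-7699585, GRCm38), and it contributed little transcript. Only Mmp3 and Mmp13 of the cluster had a mean of at least 1, against 7 of the 13 MMPs elsewhere. Mmp3 encodes stromelysin-1, which cleaves proteoglycans and activates other MMPs. Its FPKM was 14.6, 13.0 and 14.5 in libraries 1, 2 and 3. Mmp13 encodes collagenase-3, the main interstitial collagenase of rodents. Its FPKM was 7.83, 8.01 and 7.90, and it carried 98.7% of the collagenase FPKM. Mmp10, or stromelysin-2, is the nearest relative of Mmp3 and had values of 0.684, 0.749 and 0.528. Mmp3 and Mmp10 share 65 words of 75 nucleotides, 3.76% of the words of Mmp3. Only identical words were counted, so an exchange of fragments over similar but not identical stretches was not tested.

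The other 7 cluster genes had mean FPKM values of at most 0.0801. Mmp1b, a rodent interstitial collagenase gene, was the highest of them, with 2, 0 and 3 fragments. Mmp8, the neutrophil collagenase, and Mmp7, or matrilysin, were at 0 in every library. The whole cluster summed to 23.2, 21.9 and 23.2 FPKM, a mean of 22.8 ± 0.731.

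**Figure D2:**
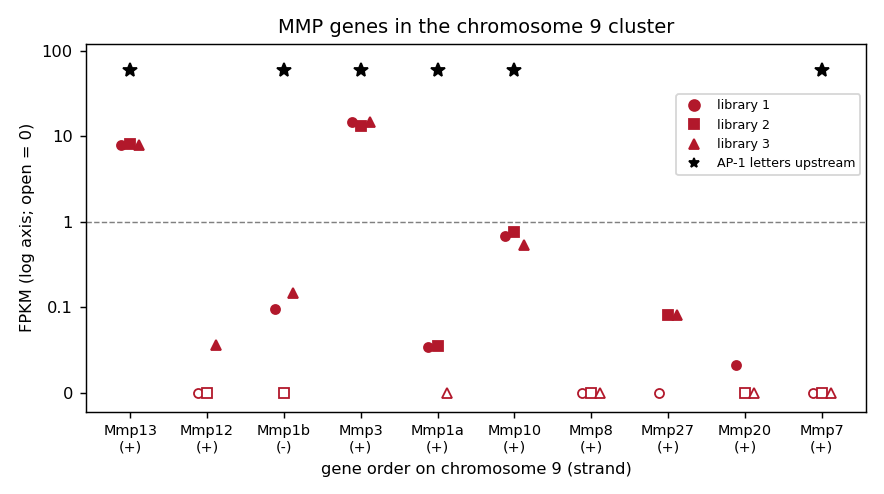
FPKM of the 10 MMP genes of the chromosome 9 cluster in each library, in gene order, on a log axis with values of 0 drawn open; stars mark genes whose 250 upstream bases hold the AP-1 letters. Mmp3 (mean 14.0) and Mmp13 (7.91) stand above the limit of 1, and the starred genes include genes above and below it.

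The upstream sequence of the cluster genes is shown because MMP genes are textbook targets of AP-1, the transcription factor of the FOS and JUN proteins. RefSeq promoter windows on GRCm38.p6 were given for 32 of the 46 members, all 10 cluster genes among them. The members without a window, which were not searched, include Mmp2, Mmp9, Mmp16, Mmp19 and Adamts7. The 250 bases before each start were searched on both strands for the AP-1 motif TGAGTCA and for the TATA motif TATAAA, which cannot overlap each other. AP-1 letters were found in 6 of 10 cluster genes (Mmp13, Mmp1b, Mmp3, Mmp1a, Mmp10 and Mmp7) and in 0 of 22 other members with a window. For Mmp11 and Adamts20 the start used lay 3994 and 61068 bases from the annotated 5′ end of the gene. Of all 20739 windows, 4.19% held AP-1 letters, 12.2% held TATA letters and 0.757% held both. The same 6 cluster genes held both. The 150 bases before the start follow, 5′ to 3′, with both motifs in capitals.

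Mmp3, chr9:7445672-7445821, plus strand: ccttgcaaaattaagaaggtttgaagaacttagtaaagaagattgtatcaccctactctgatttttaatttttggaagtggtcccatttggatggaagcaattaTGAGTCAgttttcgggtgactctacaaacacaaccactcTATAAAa

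Mmp13, chr9:7272364-7272513, plus strand: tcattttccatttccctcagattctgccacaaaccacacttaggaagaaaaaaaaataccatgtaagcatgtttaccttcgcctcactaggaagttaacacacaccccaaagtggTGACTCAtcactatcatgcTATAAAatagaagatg

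Mmp10, chr9:7502192-7502341, plus strand: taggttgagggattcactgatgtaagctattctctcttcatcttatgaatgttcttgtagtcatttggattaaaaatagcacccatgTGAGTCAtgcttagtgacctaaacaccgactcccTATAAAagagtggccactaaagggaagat

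Mmp1a, chr9:7463991-7464140, plus strand: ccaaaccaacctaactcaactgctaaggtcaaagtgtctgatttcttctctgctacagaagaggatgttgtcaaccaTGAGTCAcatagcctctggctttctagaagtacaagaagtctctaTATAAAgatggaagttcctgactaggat

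Mmp7, chr9:7691940-7692089, plus strand: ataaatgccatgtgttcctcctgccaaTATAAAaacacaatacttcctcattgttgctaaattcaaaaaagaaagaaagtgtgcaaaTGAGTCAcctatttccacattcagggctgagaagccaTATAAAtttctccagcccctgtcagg

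The AP-1 letters began 46 bases before the start in Mmp3, 35 in Mmp13, 63 in Mmp10, 73 in Mmp1a, 63 in Mmp7 and 93 in Mmp1b, whose sequence is not printed, and they read as TGACTCA, the opposite strand, in Mmp13. Genes with these letters thus spanned from a mean FPKM of 14.0 (Mmp3) to 0 (Mmp7). The windows of Mmp14 and Timp1, shown for contrast as abundant members, held neither motif.

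Mmp14, chr14:54431448-54431597, plus strand: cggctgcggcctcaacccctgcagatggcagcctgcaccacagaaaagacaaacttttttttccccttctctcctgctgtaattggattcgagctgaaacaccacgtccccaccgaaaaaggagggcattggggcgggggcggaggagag

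Timp1, chrX:20870016-20870165, plus strand: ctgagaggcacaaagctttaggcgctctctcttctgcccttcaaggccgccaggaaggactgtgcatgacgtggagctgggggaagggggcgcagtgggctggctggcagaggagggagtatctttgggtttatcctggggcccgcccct

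The cluster windows were also poor in CpG, the dinucleotide that is dense in the promoters of widely expressed genes. They held 0 to 4 CpG in 250 bases (median 0.5), against a median of 15 for the 22 other members and 8 for all windows. A match is a description of the letters only.

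ADAMTS transcripts were spread more evenly over the family and reached lower levels. Of the proteoglycan-cleaving ADAMTS genes, 3 of 7 had a mean of at least 1. Adamts1, which cleaves aggrecan and versican, had FPKM values of 30.8, 32.2 and 30.8 and carried 75.1% of the FPKM of that group. Adamts5, the main aggrecanase of mouse cartilage, had FPKM values of 8.15, 8.19 and 8.28, and its gene lies 53.1 kb from Adamts1 on chromosome 16. The lead of Adamts1 depends on division by length, since Adamts5 had more fragments (3781 against 3537 over all libraries). With the longest annotated isoform as the length Adamts1 still led, with a mean of 17.0 against 8.21. Adamts4, the other classical aggrecanase, had FPKM values of 2.06, 1.94 and 2.19. Adamts8 and Adamts15, which lie 20.1 kb apart on chromosome 9, were both at 0.

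The procollagen N-proteinases, which trim the amino-terminal propeptide of fibrillar procollagens, were represented by Adamts2 and Adamts14. Adamts2 had FPKM values of 11.6, 9.28 and 9.66, on 411, 317 and 338 fragments. Library 1 was the high one, at 1.23 times the mean of the others. Adamts14 had FPKM values of 8.92, 8.19 and 8.28, below Adamts2 in every library by deposited FPKM. That order depends on the gene length used. With the longest annotated isoform as the length Adamts14 led, with a mean of 7.20 against 3.43 for Adamts2. Adamts14 also had more fragments (1596 against 1066 over all libraries). The Adamts2 gene spans Gm12198, Gm12199 and Gm12200 with no shared exon. The last of the group, Adamts3, was at 0 in every library.

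Of the other ADAMTS genes, 4 of 9 had a mean of at least 1. Adamts7, which cleaves cartilage oligomeric matrix protein, was the highest ADAMTS transcript, with FPKM values of 33.6, 33.6 and 32.3. Its libraries lay above those of Adamts1, by 1.06 times in the means. Adamts7 shares 122 exonic nucleotides with Tbc1d2b (39.8 FPKM). Adamts12, its closest relative, had FPKM values of 8.14, 7.82 and 8.18. Adamts10 and Adamts6, a related pair linked to fibrillin microfibrils, had FPKM values of 8.98, 9.58 and 9.18 and of 7.88, 7.74 and 8.04. The values of Adamts14, Adamts5, Adamts12, Mmp13 and Adamts6 overlapped between neighbours in this order, so these genes cannot be ranked beyond their spread. Adamts2 and Adamts10 overlapped as well. Adamts13, the protease of von Willebrand factor, was the highest ADAMTS below 1, with a mean of 0.148 on 18 fragments.

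The members below the limit of 1 rested on very few fragments. The 25 of them held 142 fragments in all libraries together, of which Mmp10 had 48, Mmp23 29 and Adamts13 18. The other 22 had at most 8 fragments each, and 15 of these had 1 to 8. The lowest above 0 was Mmp20, the enamel protease, with 1 fragment. Mmp8, Mmp7, Adamts8, Adamts15, Adamts3, Adamts18 and Adamts19 were at 0, where a count of 0 allows up to 3 fragments over the libraries, an FPKM of 0.0155 for Adamts19 and of 0.0658 for Mmp7. Such members were not detectable at this depth, which does not show that they are absent.

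The balance of inhibitors and proteases was taken as a ratio of summed FPKM within each library, which cancels the library total. It compares transcript levels and not protein. The 4 TIMPs summed to 641.3, 640.4 and 633.2 FPKM in libraries 1, 2 and 3, a mean of 638.3 ± 4.44. The 23 MMPs summed to 849.8, 828.9 and 828.8, a mean of 835.8 ± 12.1. The 19 ADAMTS genes summed to 120.4, 118.8 and 117.1, a mean of 118.8 ± 1.64. MMP sums were the highest and ADAMTS sums the lowest in every library, with no overlap.

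**Figure D3:**
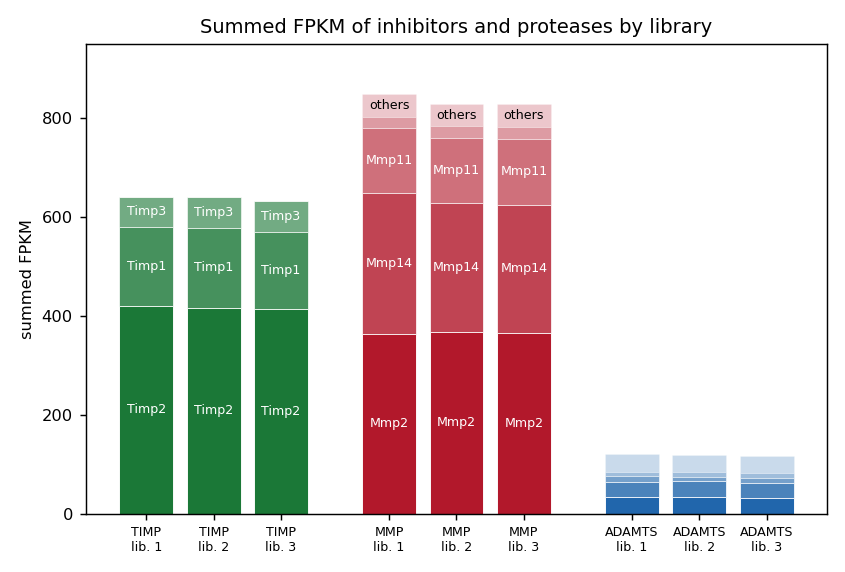
Summed FPKM of the TIMP, MMP and ADAMTS families in each library, as bars from 0 stacked by the most abundant members, with the rest as others. Timp2 makes up 65.3% of the TIMP bars and Mmp2 43.7% of the MMP bars, and the ADAMTS bars reach at most 120.4.

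The ratio of TIMP to MMP was 0.755, 0.773 and 0.764 in libraries 1, 2 and 3, a mean of 0.764 ± 0.00899, so TIMP transcripts were below MMP transcripts in 3 of 3 libraries by FPKM. The exact two-sided sign-flip permutation test of the log2 ratio gave p = 0.25, which is the smallest value that 3 libraries allow, and the adjusted p over the 4 ratios tested was also 0.25. The order of the sums depended on the gene length used. With the longest annotated isoform as the length, the ratio was 1.07, 1.09 and 1.08, above 1 in every library. Without division by length it was 0.997, 1.02 and 1.01, so the fragments of both families were nearly equal in number. FPKM here divides by the mean length of a gene's annotated isoforms, which is 2214 nt for Timp2 against a longest isoform of 3709 nt, 1441 against 3078 nt for Mmp2 and 1420 against 3238 nt for Mmp14. Which family has more transcript molecules can therefore not be told from these values.

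**Figure D4:**
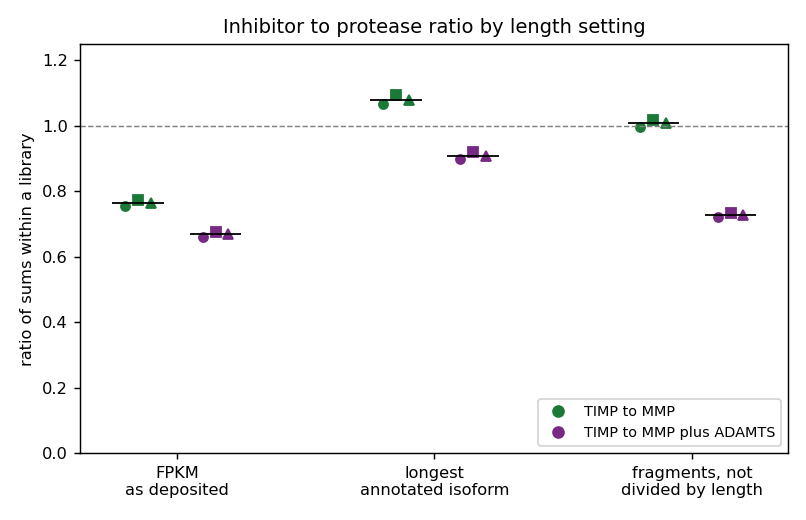
Ratio of summed inhibitors to summed proteases within each library under 3 ways of handling gene length, with 1 as a dashed line and the mean as a black bar. TIMP to MMP lies at 0.764 by deposited FPKM, 1.08 with the longest isoform and 1.01 without division by length, while TIMP to MMP plus ADAMTS lies below 1 under all 3.

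Against all proteases together, the ratio of TIMP to MMP plus ADAMTS was 0.661, 0.676 and 0.669, a mean of 0.669 ± 0.00739 (exact sign-flip permutation p = 0.25). This ratio stayed below 1 with the longest isoform (0.909 ± 0.00957) and without division by length (0.727 ± 0.00656). MMP transcripts exceeded ADAMTS transcripts 7.04-fold ± 0.0544 by FPKM (exact p = 0.25, above 1 in 3 of 3 libraries), and 2.59-fold ± 0.0176 without division by length. Membrane-anchored MMPs stood at 0.478 ± 0.0280 of secreted MMPs (exact p = 0.25), from 0.510 in library 1 to 0.460 in library 3. That ratio is nearly the ratio of Mmp14 to the secreted MMPs, and without the most abundant member of each sum it was 0.00632.

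The libraries agreed on most members to within counting error. Among the 21 members with a mean of at least 1, the median CV between libraries was 2.44%, against 4.05% from counting error alone and a median CV of 4.27% for all genes at this level. The fragments of 24 members with at least 15 in all could be compared with the shares of the library totals. By a chi-square with 2 degrees of freedom at the 5% limit, 3 members differed between libraries (12.5%), against 9.05% of the 15317 genes compared, a share near the background. These were Mmp14, Adamts2 and Mmp23, with chi-square values of 32.3, 11.1 and 10.2. Mmp14 and Adamts2 were high in library 1, whereas Mmp23 was low there. Without library 1, 0 of 23 members passed, against 6.82% of all genes compared, and without library 3 Mmp14 and Adamts2 passed. The remaining 21 members compared were within the limit.

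**Figure D5:**
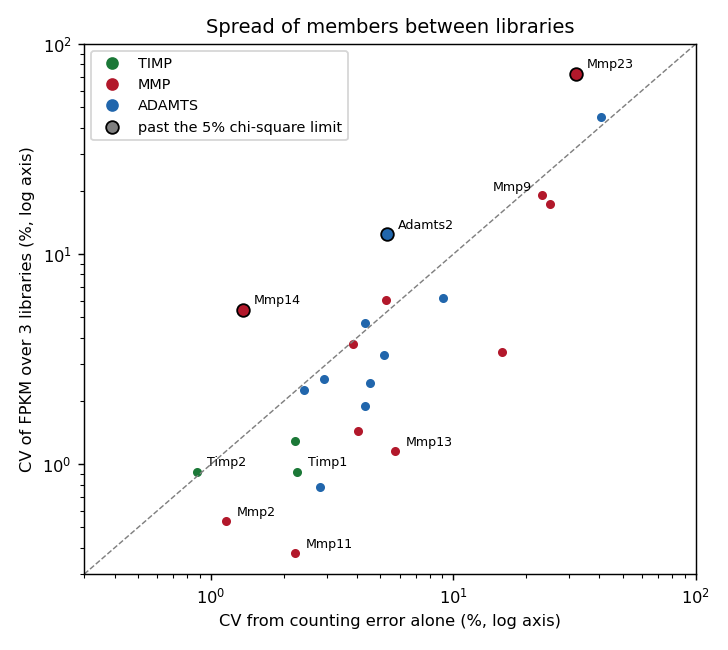
CV of FPKM over the 3 libraries against the CV expected from counting error for the 24 members with at least 15 fragments, on log axes, with equality as a dashed line. The CV is above the line for 7 members, and Mmp14, Adamts2 and Mmp23 (outlined) are past the chi-square limit.

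Genes that activate, restrain or clear these proteases were examined from fixed lists. Of 4 proprotein convertases, which cut the prodomains of MMP14, MMP11 and the ADAMTS proteases, 2 had a mean of at least 1. Furin led with 74.2, 71.6 and 69.9 FPKM, and Pcsk6 was at 0. In the plasminogen system, a second route of MMP activation, 4 of 6 genes passed. The urokinase receptor Plaur was the highest at 94.3 FPKM, while the protease inhibitor Serpine2 was listed at 0. Plg, the gene of plasminogen itself, did not pass, with a mean of 0.0112 on 1 fragment. Of 6 other inhibitors of metalloproteinases, only Reck passed, a membrane-anchored inhibitor of MMP2, MMP9 and MMP14. Reck had FPKM values of 13.6, 12.5 and 14.0, far below Timp2, and A2m and Tfpi2 were at 0. The MMP inducer Bsg, the MMP docking receptor Cd44 and the clearance receptor Lrp1 all passed, from 111.6 FPKM for Cd44 to 1014 for Lrp1, which takes up TIMP and protease complexes.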

How the data were processed

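UMI-RNAseq of 3 NIH3T3 libraries was used. According to the methods, UMIs were extracted with UMI-tools, mapping was done with Hisat2, PCR copies sharing a position and a UMI were dropped, and genes were counted with HTSeq. The submitters' processing notes name UMI-tools 1.0.0, HISAT2 2.0.4, HTSeq 0.6.1 and DESeq 1.10.1; the build and annotation for counting are not given in the sources used here. The authors deposited FPKM values for 55573 genes, in 2 tables with identical values, and 0 columns of values were left unused.

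Each FPKM was converted back to fragments with the mean isoform length in GENCODE M21 (GRCm38), which gave whole numbers (tolerance 0.01) for 99.1% of 26193 genes above 0 and for all 46 members. The recovery and the chi-square comparison were tested on simulated fragments, and the permutation test was run on small made-up sets of values. No filter, scaling or pseudocount was applied to the levels. Ratios of sums went through a two-sided exact permutation test that flips the sign of each library's log2 ratio. Fragments were compared between libraries with a chi-square statistic. Motifs were searched in RefSeq promoter windows. Python 3.11.15, numpy 2.4.6, pandas 2.3.3, scipy 1.17.1 and matplotlib 3.10.9 were used.

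The members and lists were chosen with earlier results of these data known. Values are given for the TIMPs and every MMP and ADAMTS with a mean FPKM of at least 1; of the others, the highest and lowest, those at 0, those beside the limit and some chosen after their values were seen are named, as are the highest and lowest genes of each context list and genes that overlap a member, apart from a result that is not reported here. Alternatives were leaving out each library, other lengths, pseudocounts, limits, size factors and sums without chosen members. With 1 condition, samples were not compared in groups.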

Additional observations from a re-analysis of the deposited data

How the results depend on the processing

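Of 84 alternatives tried, 73 kept the direction of the result and its side of the threshold, or for a value without a test stayed near it. For the ratios only the direction could change, because the sign-flip test with 3 libraries cannot give a p below 0.25. TIMP to MMP had a log2 ratio of -0.39 and turned to 0.011 without division by gene length, to 0.11 with the longest annotated isoform, and to 0.11 with the longest protein-coding isoform, which was added after seeing the data. These alternatives differ from the deposited values only in the length used. The other ratios kept their direction throughout. Without the most abundant member of each sum, TIMP to MMP fell to 0.470 and TIMP to all proteases to 0.375. MMP to ADAMTS had a log2 ratio of 2.82, which became 1.37 without division by length and 3.47 over members with a mean of at least 10. The 21 members with a mean of at least 1 became 39 with any FPKM above 0. With the longest annotated isoform as the length, Mmp16 (mean 0.561) and Mmp9 (0.413) fell below 1. The 3 members that differed between libraries became 0 to 3 when 1 library was left out, with 0 when library 1 was. The summed FPKM of TIMP, MMP and ADAMTS moved to 924.9, 1211 and 172.1 when rescaled to 1000000 per library, and to 433.4, 401.5 and 75.3 with the longest isoform. Members with a few fragments are limited by depth. No paired analysis was possible because all libraries share 1 condition.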

Other observations

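The relatives of the members were transcribed unevenly. Of 8 ADAM sheddases, membrane proteases that release growth factors and receptors from the cell surface, 7 had a mean FPKM of at least 1. Adam9 was the highest, with 106.9, 104.4 and 104.7 FPKM in libraries 1, 2 and 3, and Adam33 the lowest, with a mean of 0.108. Of 6 ADAMTS-like genes, which resemble ADAMTS proteases but lack the catalytic domain, 2 passed the same limit. Adamtsl5 had FPKM values of 70.9, 71.0 and 66.1 and thus lay above Adamts7, the highest ADAMTS protease, in every library. Adamtsl2 was the lowest, on 1 fragment.

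Upstream CpG was denser in members with a mean FPKM of at least 1 (median 14.5 in 250 bases) than in those below (median 3). Over protein-coding genes with a window the medians were 17 and 3. Among the members, level and cluster membership were not separated. All genes of the chromosome 9 cluster except Mmp3 and Mmp13 were below 1, and the cluster windows held 0 to 4 CpG. Outside the cluster, members below 1 held from 1 (Adamts13 and Mmp21) to 35 (Adamts3). Those with a mean of at least 1 held from 6 (Timp1 and Adamts12) to 35 (Adamts14). This is a description over genes of 1 cell line, which share annotation and are not replicates.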
